A study of Mus musculus with 67 samples.

Results

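Livers labelled as lacking both REV-ERB nuclear receptors were compared with wild-type (WT) livers of mice that could eat a high-fat diet at any hour. The comparison held 20 of the 67 libraries of the study, chosen by their labels for genotype and feeding. The double knockout, labelled Rev-erb[alpha]/[beta]-liverdoubleKO and written ReverbLDKO here, had 8 libraries, 1 every 3 h of zeitgeber time (ZT, hours after lights on) from ZT3 to ZT24. WT had 12 libraries, 2 every 4 h from ZT4 to ZT24. All mice were C57BL/6, 24 weeks old and after 12 weeks of the diet, so the controls carry the dietary challenge too. The deletions are in the liver, and the labels do not name the Cre driver. Whether each library is a separate mouse is not stated either, and the p-values below rest on the spread among libraries, part of which may be technical. The same genotypes under time-restricted feeding (8 ReverbLDKO and 11 WT libraries, none of them shared) are used below only for the same genes.

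REV-ERB alpha and beta, encoded by Nr1d1 and Nr1d2, are heme-binding nuclear receptors that repress transcription by recruiting the NCoR and HDAC3 corepressor complex. They compete with the activating ROR receptors for the same DNA element, and one of their best known targets is Arntl, which encodes the clock activator BMAL1. BMAL1 with CLOCK or NPAS2 binds E-box elements and drives Nr1d1, Nr1d2, the Per and Cry genes and the D-box factors, which closes the daily loop. In liver the REV-ERBs are also known for their influence on lipid, bile acid and glucose metabolism.

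Because the groups were sampled at different hours, each gene was given a 24-h level and a cosine and sine of ZT per group, on log2(FPKM + 1). FPKM is a count of fragments per kilobase of transcript, divided by a scaling number for each library that is described with the processing. Levels of single genes are given as the median FPKM, with the lowest and highest library in parentheses. Differences below are ReverbLDKO minus WT levels ± SE on that scale unless given as FPKM, which understates the change of genes at low FPKM. Adjusted p-values come from limma over the 9951 genes that averaged 1 FPKM or more, and a gene passed under 0.05. Of these genes, 1907 (19.2%) were higher and 2070 (20.8%) were lower in ReverbLDKO, 40.0% in all. Most differences were small, since 126 of the higher and 185 of the lower genes differed by at least 1 on the log2 scale. The FPKM of the libraries did not add up to a common sum, and with every library scaled to the same sum the split was 4114 higher and 872 lower, with a shift of the median gene to 0.25, against -0.03 for the values as deposited.

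Several properties of the libraries moved with the genotype. Recovered depth was 12.9 to 36.1 M reads in ReverbLDKO and 10.8 to 16.8 M in WT. The FPKM sum was lower in ReverbLDKO, at 385770 to 426770 (median 404020), against 418620 to 1095900 (median 497470) in WT (adjusted p = 0.000333, exact permutation test). The slope of a library's log2 values on gene GC content was lower in ReverbLDKO, with medians of 0.12 in ReverbLDKO and 0.30 in WT per 10 percentage points (exact permutation test, two-sided, adjusted p = 0.00172 over 14 properties). The 79 genes with at least 50% of their exon length opposite the exons of a gene at least 10 times as strong summed to 23.05 to 40.2 FPKM in ReverbLDKO and 9.05 to 28.98 in WT (adjusted p = 0.000370, exact permutation test). Under restricted feeding this sum ran the other way, at 6.74 to 8.58 FPKM in ReverbLDKO and 16.4 to 80.5 in WT. Both WT libraries of ZT16 held pancreas transcripts (summed markers of 4792 and 3020 FPKM, against a WT median of 56.4). The WT library of ZT16 number 2 also stood apart in its FPKM sum of 1095900, against 497470 for the median WT library, and it held the highest WT value of 4172 genes. The part of these properties in the gene results was not tested beyond the fits given below that correct for GC content and length or leave those libraries out.

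The targeted genes were not low in the libraries labelled as their knockout. Nr1d1 was at 33.5 FPKM (10.6 to 66.4) in ReverbLDKO, against 3.16 FPKM (0.165 to 33.3) in WT. Its level was higher by 2.77 ± 0.21 (adjusted p = 1.34e-07), and 4 of 8 ReverbLDKO libraries lay above the highest WT library. Nr1d2 was at 17.9 FPKM (10.7 to 20.6) in ReverbLDKO, against 8.28 FPKM (1.70 to 26.6) in WT, and its level was higher by 1.16 ± 0.22 (adjusted p = 0.000727). FPKM is summed over all exons of a gene, so these values do not show whether a part of the transcript was deleted and do not check the labels. Nr1d1 and Nr1d2 are themselves targets of the clock activators, whose levels are described next.

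Of the 5 clock activators tested, 4 rose and 1 fell in ReverbLDKO, beside 19.2% and 20.8% of all genes. The peak-to-trough difference of each of the 4 was smaller than in WT. The list had 3 higher and 1 lower after correction for GC content and length and 2 and 1 under restricted feeding. Arntl was at 11.5 FPKM (10.9 to 13.5) in ReverbLDKO, against 6.93 FPKM (0.552 to 11.7) in WT. Its ReverbLDKO libraries, 1 per hour sampled, lay close together across the hours, whereas the 4 WT libraries of ZT8 and ZT12 had 0.552 to 1.90 FPKM. The level rose by 1.26 ± 0.20 (adjusted p = 0.000199), and the fitted peak-to-trough difference was 0.22 in ReverbLDKO and 2.65 in WT on the log2 scale. Npas2, which encodes a partner of BMAL1, was at 3.64 FPKM (2.44 to 5.06) in ReverbLDKO, against 0.328 FPKM (0 to 3.22) in WT. From ZT8 to ZT16 no WT library had more than 0.152 FPKM, while every ReverbLDKO library had at least 2.44 FPKM, and its level rose by 1.56 ± 0.15 (adjusted p = 1.41e-06). Clock, the other BMAL1 partner, was at 5.27 FPKM (4.35 to 6.08) in ReverbLDKO, against 3.62 FPKM (1.995 to 4.996) in WT, a rise of 0.49 ± 0.07 (adjusted p = 6.88e-05).

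Rora encodes ROR alpha, which activates through the element that REV-ERBs repress. It was at 6.96 FPKM (5.26 to 7.32) in ReverbLDKO, against 2.87 FPKM (0.866 to 5.89) in WT, and rose by 0.96 ± 0.17 (adjusted p = 0.000349). Calls were lost after correction for GC content and length for Clock (adjusted p = 0.0533).

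ZT12 and ZT24 were the hours sampled in both genotypes, with 1 ReverbLDKO and 2 WT libraries each, so no test was made within an hour. At ZT12 Arntl had 11.02 FPKM in ReverbLDKO, against 1.90 and 1.45 in WT, and at ZT24 it had 12.7 FPKM in ReverbLDKO, against 9.79 and 10.2 in WT. The gap in Arntl was thus wide at ZT12 and narrow at ZT24. For Nr1d1 the gap was wide at both hours. It had 47.5 FPKM in ReverbLDKO, against 9.12 and 8.04 in WT at ZT12, and 33.1 FPKM in ReverbLDKO, against 0.863 and 0.965 in WT at ZT24. Per2, a clock repressor, was lower in ReverbLDKO at ZT12, the WT peak, and had 4.58 FPKM in ReverbLDKO, against 12.8 and 12.2 in WT at ZT12, and 2.43 FPKM in ReverbLDKO, against 1.29 and 1.65 in WT at ZT24.

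**Figure D1:**
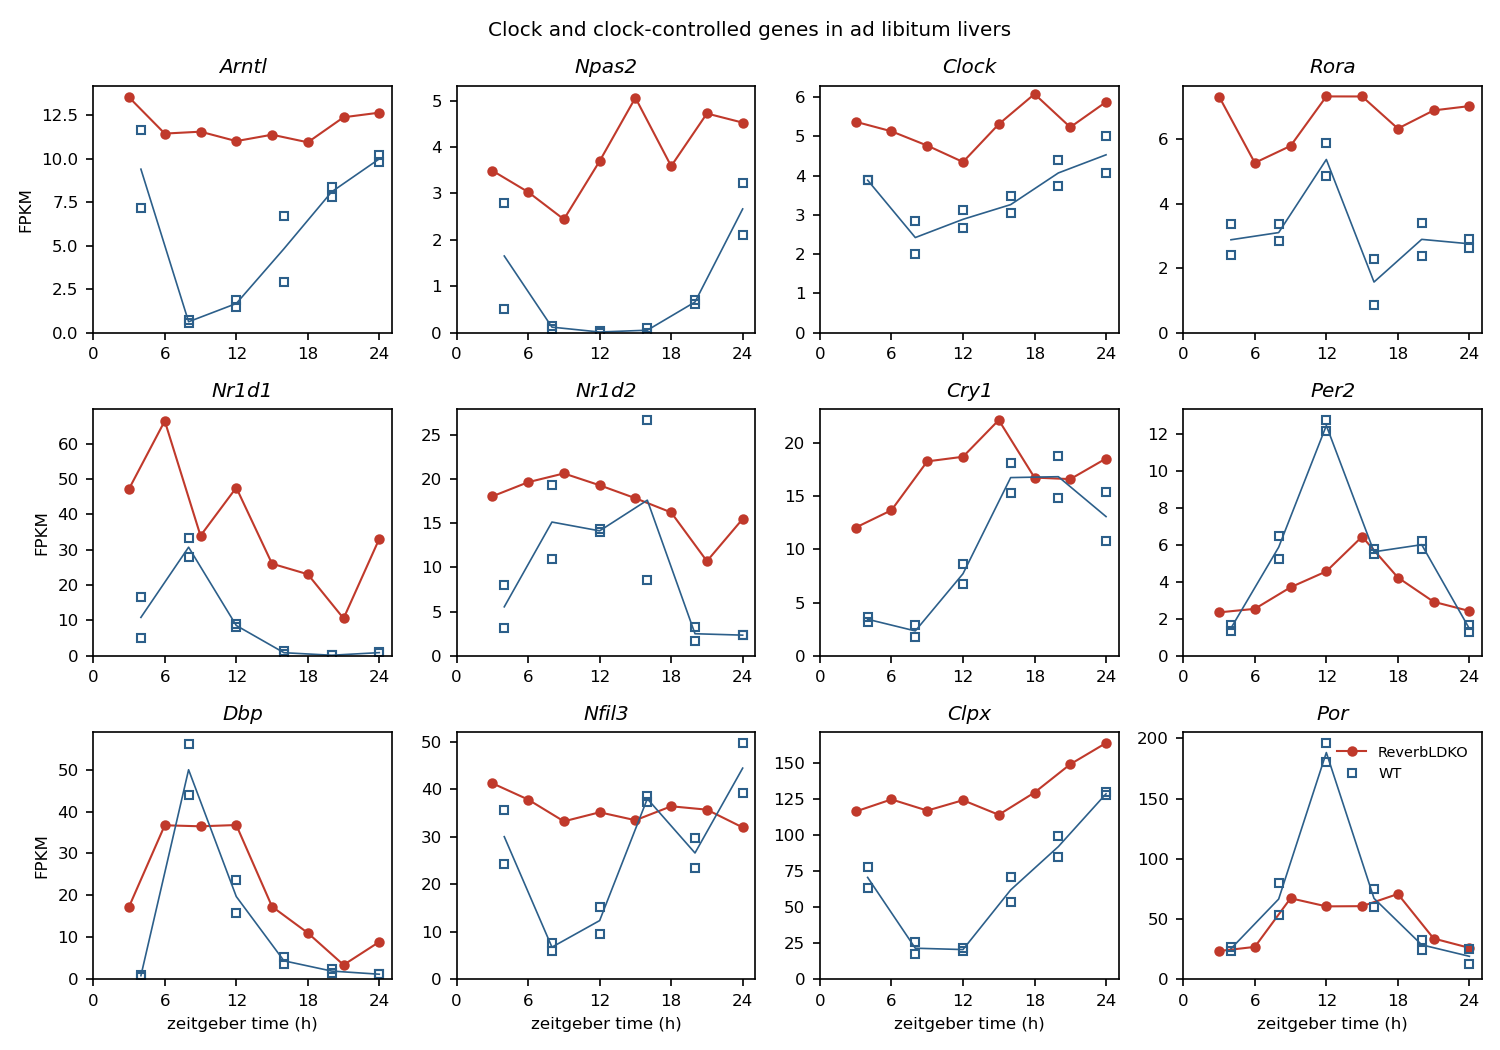
FPKM of 12 clock and clock-controlled genes by zeitgeber time in ad libitum livers. Filled circles joined by a line are the 8 ReverbLDKO libraries, open squares are the 12 WT libraries and the thin line joins their means. Arntl, Npas2 and Clpx stayed high in ReverbLDKO at ZT9 and ZT12, and WT was low at ZT8 and ZT12. Por peaked at ZT12 in WT, where it was far lower in ReverbLDKO.

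The windows around the starts of 3 of these genes show the elements through which the loop is known to run. Sequences are the RefSeq windows of GRCm38.p6 from 250 bases before to 50 after an annotated start, on the strand of the gene and written 5′ to 3′. Capitals mark, on either strand, AANTAGGTCA or its core TAGGTCA, the element shared by REV-ERBs and RORs (Arntl and Nfil3), and the E-box CACGTG (Cry1), which lies 60 bases before the start. In Arntl the match lies 27 bases after the start, and in Nfil3 its complement lies 12 bases before it.
Arntl chr7:113207261-113207560 (+): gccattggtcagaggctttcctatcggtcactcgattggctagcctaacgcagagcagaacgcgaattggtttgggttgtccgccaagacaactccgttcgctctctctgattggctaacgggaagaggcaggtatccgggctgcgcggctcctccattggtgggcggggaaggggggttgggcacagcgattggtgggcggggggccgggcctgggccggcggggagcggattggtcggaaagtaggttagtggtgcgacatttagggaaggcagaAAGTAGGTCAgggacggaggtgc
Nfil3 chr13:52980990-52981289 (-): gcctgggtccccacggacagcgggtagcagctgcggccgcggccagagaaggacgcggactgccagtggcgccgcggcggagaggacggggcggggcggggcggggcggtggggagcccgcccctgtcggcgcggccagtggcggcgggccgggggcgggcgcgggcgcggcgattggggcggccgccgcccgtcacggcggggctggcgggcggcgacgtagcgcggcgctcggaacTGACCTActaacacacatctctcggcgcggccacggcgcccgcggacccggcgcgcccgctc
Cry1 chr10:85185005-85185304 (-): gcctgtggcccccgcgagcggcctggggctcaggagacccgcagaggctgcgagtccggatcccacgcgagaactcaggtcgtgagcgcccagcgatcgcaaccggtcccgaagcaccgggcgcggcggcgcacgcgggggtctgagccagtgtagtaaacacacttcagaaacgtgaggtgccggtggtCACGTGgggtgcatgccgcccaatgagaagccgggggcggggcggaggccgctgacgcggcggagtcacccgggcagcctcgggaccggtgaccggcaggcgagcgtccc
Of 27025 genes with a window searched, 0.259% held the longer element, 2.97% its core and 8.09% the E-box. Over the 7510 tested genes with a window the shares were 0.213%, 2.54% and 12.2%. Of 1408 genes that rose and had a window, 6 (0.426%) held the longer element, Arntl among them, 37 (2.63%) the core and 198 (14.1%) the E-box. Of 1563 that fell, 3 (0.192%) held the longer element, 37 (2.37%) the core and 190 (12.2%) the E-box. The windows of Npas2, Clock, Nr1d1 and Nr1d2 held none of these strings. A match is a string in a short window and says nothing about binding in these livers.

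Among the clock repressors, 4 of 9 members tested rose and 0 fell, with a median difference of 0.38, against -0.03 over all genes tested. Cry1, which encodes a repressor of CLOCK and BMAL1, was at 17.5 FPKM (12.04 to 22.1) in ReverbLDKO, against 9.70 FPKM (1.75 to 18.8) in WT, and rose by 0.98 ± 0.13 (adjusted p = 3.14e-05). WT Cry1 was low at ZT4 and ZT8 and high from ZT16, while ReverbLDKO was at 12.04 FPKM or above throughout. Bhlhe40, which encodes the repressor DEC1, was at 54.7 FPKM (37.5 to 69.3) in ReverbLDKO, against 31.9 FPKM (11.6 to 48.96) in WT, and rose by 0.94 ± 0.20 (adjusted p = 0.00207). The Per genes encode the partners of the CRY proteins, and their levels did not pass the test. Per1 differed by 0.14 ± 0.17 (adjusted p = 0.535), Per2 by -0.28 ± 0.15 (adjusted p = 0.149) and Per3 by 0.38 ± 0.15 (adjusted p = 0.0584). Without both WT libraries of ZT16, Per2 passed as lower (adjusted p = 0.000169). It also did so with 12-h terms (adjusted p = 0.0420), library weights (adjusted p = 0.00121) and without WT ZT16 number 2 alone (adjusted p = 0.0444). Per3 passed as higher with 12-h terms (adjusted p = 0.00130), in a fit of all 67 libraries (adjusted p = 0.0202) and with library weights (adjusted p = 0.0340). Cry2 differed by 0.34 ± 0.17 (adjusted p = 0.131) and Ciart, the CHRONO repressor, by 0.19 ± 0.22 (adjusted p = 0.507).

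All 4 D-box factors rose. They had 2 higher and 0 lower under restricted feeding. Dbp, an activator and direct E-box target, was at 17.3 FPKM (3.39 to 36.8) in ReverbLDKO, against 2.91 FPKM (0.542 to 56.1) in WT, and its level rose by 1.49 ± 0.37 (adjusted p = 0.00525). ReverbLDKO was near 36.8 FPKM from ZT6 to ZT12, and WT peaked at ZT8 with 56.1 and 43.9 FPKM. Nfil3, the D-box repressor E4BP4, was at 35.4 FPKM (31.9 to 41.2) in ReverbLDKO, against 26.98 FPKM (5.86 to 49.7) in WT, and rose by 0.67 ± 0.22 (adjusted p = 0.0244). Its ReverbLDKO values spanned a narrow band inside the WT range, and the peak-to-trough difference was 0.12 in ReverbLDKO and 2.11 in WT. Tef rose by 0.62 ± 0.20 (adjusted p = 0.0232) and Hlf by 0.66 ± 0.17 (adjusted p = 0.00622), both activators. Leaving out 1 library ended the calls of Nfil3 (1 of 20 libraries, adjusted p up to 0.0509, without the ReverbLDKO library of ZT3) and Tef (1 of 20 libraries, adjusted p up to 0.0529, without the ReverbLDKO library of ZT18). Calls were also lost without both WT libraries of ZT16 for Tef (adjusted p = 0.0517), in a fit without time terms for Dbp (adjusted p = 0.0929), Nfil3 (adjusted p = 0.113) and Tef (adjusted p = 0.202), and with WT number 1 libraries only for Tef (adjusted p = 0.0577). They were also lost with WT number 2 libraries only for Nfil3 (adjusted p = 0.0920).

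Of the kinases and ubiquitin ligase parts that tune the clock proteins, Gsk3b rose by 0.57 ± 0.14 (adjusted p = 0.00468) and Fbxw11 by 0.21 ± 0.06 (adjusted p = 0.00805), while Csnk1d at 0.17 ± 0.11 (adjusted p = 0.233) and Btrc at 0.10 ± 0.06 (adjusted p = 0.203) did not pass. Btrc passed as lower after correction for GC content and length (difference -0.26, adjusted p = 0.00826). In the corepressor complex that REV-ERBs recruit, Tbl1xr1 rose by 0.60 ± 0.10 (adjusted p = 0.000238), Tbl1x rose by 0.39 ± 0.13 (adjusted p = 0.0212) and Gps2 fell by 0.41 ± 0.06 (adjusted p = 0.000102). All 8 ReverbLDKO values of Gps2 were below every WT value, but under restricted feeding its difference was 0.38 ± 0.11 (adjusted p = 0.00583). The corepressor Ncor1 differed by 0.41 ± 0.17 (adjusted p = 0.0640) and the deacetylase Hdac3 by -0.13 ± 0.11 (adjusted p = 0.328). Calls were lost after correction for GC content and length for Tbl1x (adjusted p = 0.0811) and Gps2 (adjusted p = 0.871), with each library scaled to the same sum for Gps2 (adjusted p = 0.528), and with WT number 2 libraries only for Tbl1x (adjusted p = 0.0593).

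Of 10 genes known as rhythmic outputs of the liver clock 4 rose and 1 fell. Clpx, a mitochondrial protease subunit, was at 125 FPKM (114 to 164) in ReverbLDKO, against 67.1 FPKM (17.1 to 129.6) in WT, and rose by 1.26 ± 0.13 (adjusted p = 2.72e-06). WT had 17.1 to 25.8 FPKM at ZT8 and 19.6 to 21.5 at ZT12, whereas no ReverbLDKO library was under 114. Chka, choline kinase alpha, was at 10.4 FPKM (7.66 to 12.8) in ReverbLDKO, against 5.12 FPKM (1.21 to 9.81) in WT, and rose by 1.03 ± 0.15 (adjusted p = 7.18e-05). The tight junction gene Cldn1 rose by 0.70 ± 0.12 (adjusted p = 0.000309) and Mreg by 0.53 ± 0.10 (adjusted p = 0.000567). Tspan4 fell by 0.49 ± 0.19 (adjusted p = 0.0463). Por, the reductase that serves cytochromes P450, differed by -0.16 ± 0.17 (adjusted p = 0.460) in level, but its highest values were 70.7 FPKM in ReverbLDKO, against 196 in WT at ZT12. Usp2 at -0.33 ± 0.26 (adjusted p = 0.327), Wee1 at -0.20 ± 0.16 (adjusted p = 0.346), Leo1 at 0.17 ± 0.14 (adjusted p = 0.328) and Nampt at -0.49 ± 0.19 (adjusted p = 0.0515) did not pass. Leaving out 1 library ended the call of Tspan4 (15 of 20 libraries, adjusted p up to 0.0912, without the ReverbLDKO library of ZT24). Calls were also lost after correction for GC content and length for Tspan4 (adjusted p = 0.371), with each library scaled to the same sum for Tspan4 (adjusted p = 0.407), and in a fit without time terms for Tspan4 (adjusted p = 0.191). They were also lost with no filter on low values for Tspan4 (adjusted p = 0.0862), and with 12-h terms for Tspan4 (adjusted p = 0.0571).

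The 12 genes that rose most in level, outside those opposite a stronger gene, included several cytochromes P450, of which Cyp2a4 rose most of all 12. Cyp2a4, a steroid hydroxylase that is higher in female than in male mouse liver, was at 102 FPKM (3.07 to 173) in ReverbLDKO, against 0.118 FPKM (0 to 11.9) in WT. It rose by 5.31 ± 0.52 (adjusted p = 1.92e-06), whereas under restricted feeding the difference was 0.14 ± 0.44 (adjusted p = 0.813). Cyp2a5, its close relative, was at 640.3 FPKM (333 to 1180.2) in ReverbLDKO, against 141 FPKM (14.3 to 377) in WT, and rose by 2.70 ± 0.30 (adjusted p = 7.07e-06). Cyp17a1, a steroid hydroxylase of androgen synthesis, was at 95.5 FPKM (59.6 to 146) in ReverbLDKO, against 10.7 FPKM (3.94 to 24.99) in WT, with every ReverbLDKO library above every WT library and a rise of 2.99 ± 0.29 (adjusted p = 1.46e-06). Cyp2b9 rose by 2.88 ± 0.89 (adjusted p = 0.0176) with wide overlap, at 1.19 to 158 FPKM in ReverbLDKO and 0.0426 to 163 in WT. Members of the Cyp2a and Cyp2b families are near copies, so the counting could have divided their reads.

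Loxl4, a lysyl oxidase that cross-links matrix, was among the genes whose groups did not overlap. It was at 16.4 FPKM (13.5 to 19.4) in ReverbLDKO, against 0.587 FPKM (0 to 4.72) in WT, rose by 3.11 ± 0.17 (adjusted p = 4.52e-09) and differed by 3.28 ± 0.16 (adjusted p = 5.45e-16) under restricted feeding. Its lowest ReverbLDKO library had 13.5 FPKM, against 4.72 in the highest WT library. Obp2a, a lipocalin, was at 43.2 FPKM (29.5 to 100.1) in ReverbLDKO, against 5.28 FPKM (1.27 to 22.9) in WT, and rose by 2.86 ± 0.38 (adjusted p = 3.74e-05), again without overlap. Hamp2, a hepcidin copy, rose by 2.61 ± 0.59 (adjusted p = 0.00290). Gstm3, a glutathione transferase, was at 79.7 FPKM (32.5 to 175) in ReverbLDKO, against 10.7 FPKM (7.64 to 52.1) in WT, and rose by 2.47 ± 0.30 (adjusted p = 1.42e-05).

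The next 3 include genes annotated as a small RNA and a mitochondrial tRNA. The libraries were made from polyA RNA, and whether reads counted for these 3 came from their own transcripts was not tested. Mir6236 rose by 3.13 ± 0.50 (adjusted p = 0.000169), Lars2, the mitochondrial leucyl-tRNA synthetase, by 2.79 ± 0.37 (adjusted p = 3.39e-05) and the mitochondrial tRNA gene mt-Ti by 3.07 ± 0.38 (adjusted p = 1.68e-05). The last was at 277 FPKM (179 to 303) in ReverbLDKO, against 26.04 FPKM (6.33 to 112) in WT, and its difference was -0.13 ± 0.34 (adjusted p = 0.772) under restricted feeding. The remaining gene of the 12 was Nr1d1. In 4 of the 12 the groups did not overlap, where 3.33% of all genes tested had every ReverbLDKO library above every WT library. The 12 were chosen for large differences in these same libraries, so the 4 cannot be judged against that share. Leaving out 1 library ended the call of Cyp2b9 (1 of 20 libraries, adjusted p up to 0.0518, without the ReverbLDKO library of ZT24). Calls were also lost with WT number 1 libraries only for Cyp2b9 (adjusted p = 0.135).

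The 12 largest falls held 4 major urinary protein genes, which encode lipocalins that carry pheromones and are higher in male liver. Mup17 was at 23.6 FPKM (5.20 to 123) in ReverbLDKO, against 2028 FPKM (8.72 to 6668) in WT, and fell by 5.55 ± 0.91 (adjusted p = 0.000241). Only 1 WT library, at 8.72 FPKM, lay among the ReverbLDKO values. Mup9 fell by 3.63 ± 0.78 (adjusted p = 0.00195), Mup18 by 2.63 ± 0.67 (adjusted p = 0.00601) and Mup11 by 2.47 ± 0.94 (adjusted p = 0.0450). These genes are near-identical copies, so the value of a single member is uncertain. Serpina1e, of the alpha-1-antitrypsin family, which also has close copies, was at 989 FPKM (37.7 to 2296) in ReverbLDKO, against 4558 FPKM (68.1 to 9384) in WT, and fell by 2.31 ± 0.76 (adjusted p = 0.0235).

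Saa1, the acute phase apolipoprotein serum amyloid A1, was at 190.2 FPKM (76.7 to 346) in ReverbLDKO, against 1581 FPKM (131 to 8805) in WT, and fell by 2.66 ± 0.56 (adjusted p = 0.00175). Saa2, its close copy, fell by 2.44 ± 0.50 (adjusted p = 0.00132), and reads of the pair could have been divided in counting. Enho, which encodes the peptide adropin, was at 3.31 FPKM (1.76 to 9.74) in ReverbLDKO, against 39.4 FPKM (5.62 to 84.9) in WT, and fell by 2.86 ± 0.38 (adjusted p = 3.98e-05), whereas its difference under restricted feeding was 0.07 ± 0.44 (adjusted p = 0.909). Fitm1, a protein of lipid droplet formation, was at 8.24 FPKM (6.06 to 12.4) in ReverbLDKO, against 60.9 FPKM (21.5 to 170.4) in WT, and fell by 2.62 ± 0.19 (adjusted p = 8.32e-08), with all 8 ReverbLDKO libraries below every WT library. Nat8, an N-acetyltransferase, was at 3.68 FPKM (2.74 to 7.81) in ReverbLDKO, against 27.1 FPKM (9.08 to 86.7) in WT, and fell by 2.42 ± 0.19 (adjusted p = 1.46e-07), also without overlap. Hddc3 fell by 2.42 ± 0.44 (adjusted p = 0.000507). Of these 12, the groups did not overlap in 2, and over all genes 1.88% had every ReverbLDKO library below every WT library. The largest falls too were chosen in these same libraries, so the 2 cannot be judged against that share. Leaving out 1 library ended the calls of Mup11 (15 of 20 libraries, adjusted p up to 0.104, without the ReverbLDKO library of ZT21) and Serpina1e (4 of 20 libraries, adjusted p up to 0.0589, without the ReverbLDKO library of ZT21). Calls were also lost after correction for GC content and length for Mup11 (adjusted p = 0.0578) and Serpina1e (adjusted p = 0.0509), without both WT libraries of ZT16 for Mup11 (adjusted p = 0.0747), and with each library scaled to the same sum for Mup11 (adjusted p = 0.0608). They were also lost in a fit without time terms for Mup11 (adjusted p = 0.0515), with WT number 1 libraries only for Mup11 (adjusted p = 0.252) and Serpina1e (adjusted p = 0.132), and with no filter on low values for Mup11 (adjusted p = 0.0933) and Serpina1e (adjusted p = 0.0529).

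**Figure D2:**
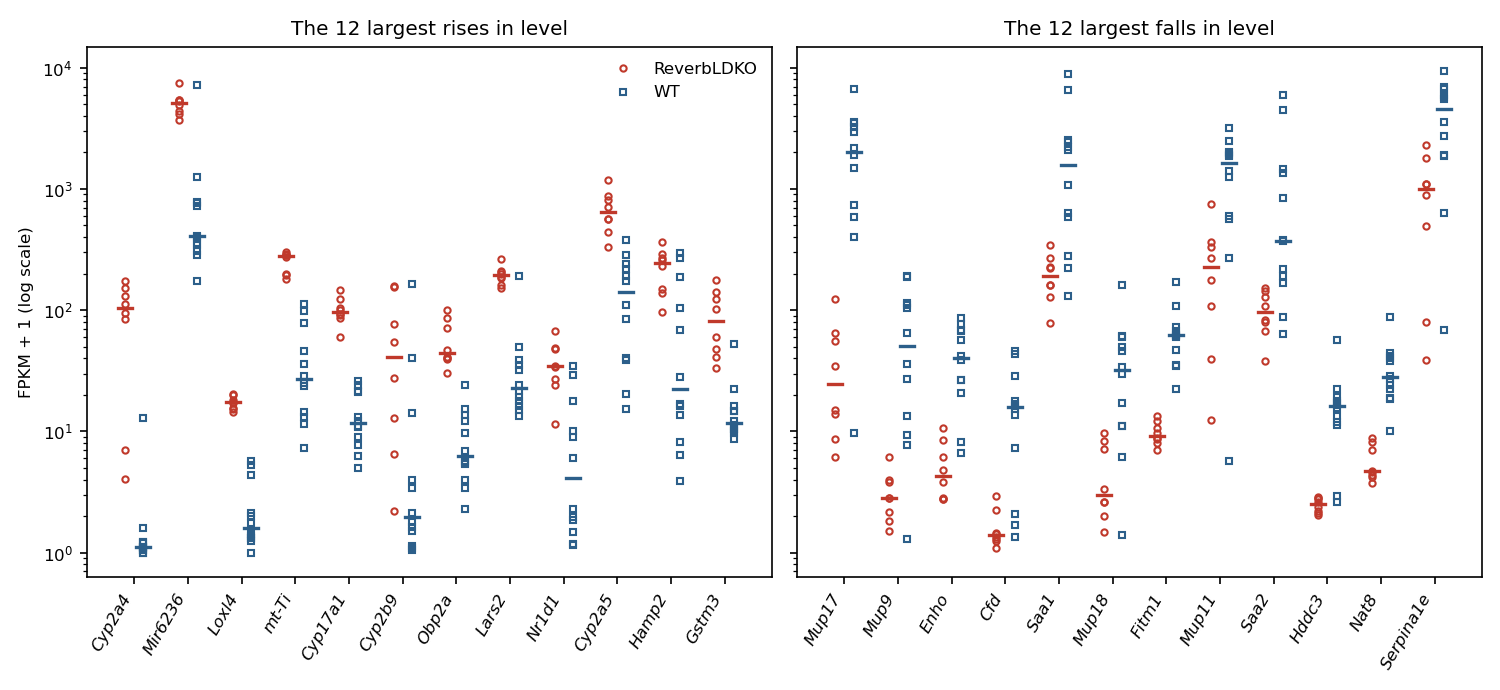
FPKM + 1 on a log scale of the 12 genes with the largest rise (left) and the 12 with the largest fall (right) in level. Circles are the 8 ReverbLDKO libraries, squares the 12 WT libraries and bars the medians. Loxl4, mt-Ti, Cyp17a1 and Obp2a on the left and Fitm1 and Nat8 on the right had no overlap between the groups.

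Genes with any exon overlap with a stronger gene on the other strand were kept apart from the largest changes and the smallest p-values. How strands were handled in counting is not given in the sources used here. Such genes stayed in the gene lists and their counts. mt-Nd6, the only protein gene on its strand of the mitochondrial genome, was at 161 FPKM (125 to 201) in ReverbLDKO, against 14.6 FPKM (6.46 to 57.8) in WT, and was higher by 3.31 ± 0.26 (adjusted p = 1.46e-07). Under restricted feeding the same gene differed by -3.71 ± 0.25 (adjusted p = 1.34e-12), in the other direction. Fdft1 fell by 1.45 ± 0.18 (adjusted p = 2.20e-05), Rps25 by 1.16 ± 0.35 (adjusted p = 0.0159) and Gadd45gip1 by 1.11 ± 0.21 (adjusted p = 0.000856). 0 of these 4 genes are among the 79 in the sum given above, which were chosen by a larger overlap and a stronger partner. The difference of mt-Nd6 had the sign of the difference in that sum under both feedings, while the other 3 fell ad libitum, where that sum was higher. Fdft1, squalene synthase, fell under restricted feeding too, by 0.77 ± 0.23 (adjusted p = 0.00762).

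Gene lists were read against the share of all genes, 19.2% higher and 20.8% lower. In the cholesterol synthesis list, 16 of 22 members tested fell and 0 rose, with a median difference of -1.30, against -0.03 over all genes. Pmvk, phosphomevalonate kinase, was at 8.75 FPKM (6.08 to 15.2) in ReverbLDKO, against 54.5 FPKM (15.9 to 73.96) in WT, with no overlap, and fell by 2.30 ± 0.21 (adjusted p = 6.11e-07). Cyp51, the lanosterol demethylase, was at 10.2 FPKM (6.25 to 16.5) in ReverbLDKO, against 48.7 FPKM (14.8 to 114) in WT, and fell by 2.13 ± 0.24 (adjusted p = 8.47e-06). Mvd, mevalonate diphosphate decarboxylase, was at 4.02 FPKM (1.72 to 5.54) in ReverbLDKO, against 19.7 FPKM (4.63 to 51.4) in WT, and fell by 2.11 ± 0.28 (adjusted p = 4.02e-05), and the sterol oxidase gene Msmo1 fell by 1.93 ± 0.24 (adjusted p = 2.20e-05). Hmgcs1, which makes HMG-CoA, did not pass at -0.42 ± 0.31 (adjusted p = 0.296). The count was 17 after correction for GC content and length, 18 without both WT libraries of ZT16, 14 with a common sum and 12 under restricted feeding, with 0 higher in each.

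**Figure D3:**
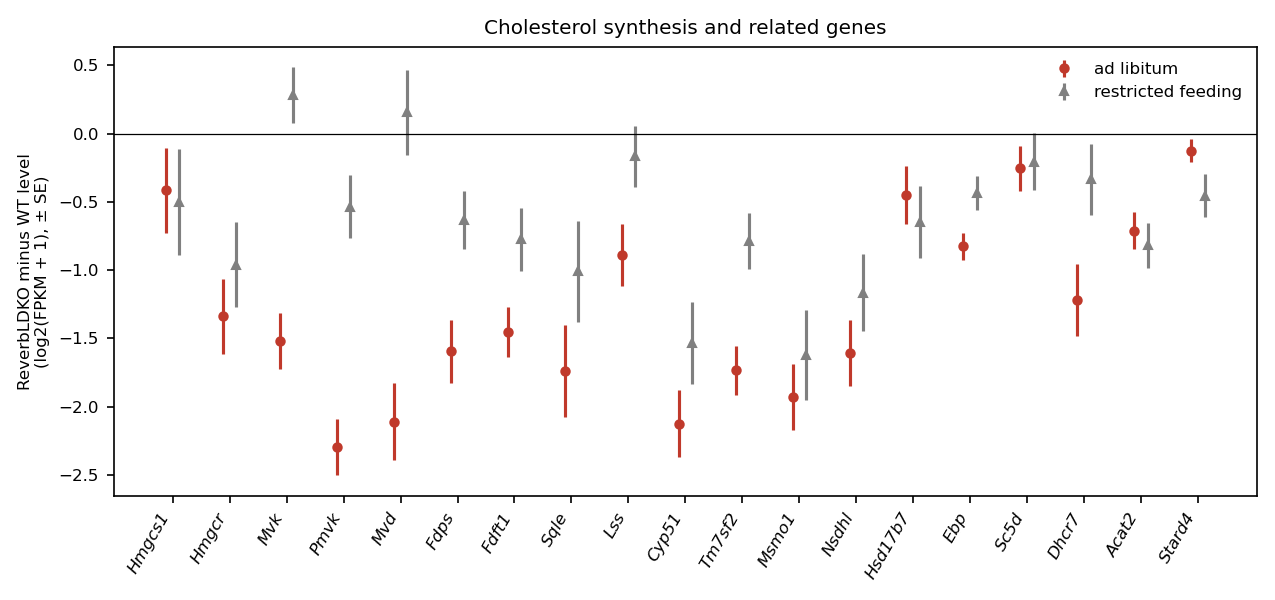
Difference of level (ReverbLDKO minus WT, log2(FPKM + 1), ± SE) for 19 tested genes of the cholesterol synthesis list, roughly in pathway order from left. Circles are ad libitum and triangles restricted libraries. Ad libitum values lie below 0 for every gene plotted, and restricted values of Mvk and Mvd lie above 0.

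The regulators of lipid synthesis fell in 6 of 9 members tested and rose in 2 (median -0.58). The list had 2 higher and 3 lower after correction for GC content and length, 2 and 1 with a common sum and 4 and 1 under restricted feeding. Mlxipl, which encodes the glucose-sensing factor ChREBP, was at 19.1 FPKM (13.2 to 26.3) in ReverbLDKO, against 28.9 FPKM (21.4 to 34.8) in WT, and fell by 0.62 ± 0.12 (adjusted p = 0.00106). Srebf1, which encodes the lipogenic factor SREBP1, rose by 0.76 ± 0.28 (adjusted p = 0.0385), and under restricted feeding its difference was 2.06 ± 0.32 (adjusted p = 8.26e-06). Of the 21 genes of fatty acid synthesis 1 rose and 3 fell, with a median of -0.01. These genes had 0 higher and 5 lower without both WT libraries of ZT16, 3 and 1 with a common sum, 0 and 5 with WT number 1 libraries only, 4 and 3 with WT number 2 libraries only and 6 and 2 under restricted feeding. Slc25a1, the mitochondrial citrate carrier, was at 81.1 FPKM (56.4 to 90.99) in ReverbLDKO, against 132 FPKM (104 to 153) in WT, and fell by 0.75 ± 0.09 (adjusted p = 2.14e-05), without overlap. Agpat2, of glycerolipid synthesis, fell by 0.49 ± 0.11 (adjusted p = 0.00313). Fatty acid synthase, Fasn, differed by 0.44 ± 0.40 (adjusted p = 0.394). Leaving out 1 library ended the call of Srebf1 (13 of 20 libraries, adjusted p up to 0.0899, without the ReverbLDKO library of ZT12). Calls were also lost after correction for GC content and length for Agpat2 (adjusted p = 0.0866), with each library scaled to the same sum for Mlxipl (adjusted p = 0.196) and Agpat2 (adjusted p = 0.248), and in a fit without time terms for Srebf1 (adjusted p = 0.132). They were also lost with WT number 1 libraries only for Srebf1 (adjusted p = 0.0686), and with no filter on low values for Srebf1 (adjusted p = 0.0776).

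In bile acid synthesis 1 of 12 members rose and 3 fell. The list had 2 higher and 1 lower with a common sum and 1 and 5 with WT number 2 libraries only. Cyp7a1, the rate-limiting enzyme, was at 12.2 FPKM (4.12 to 21.6) in ReverbLDKO, against 33.5 FPKM (8.85 to 87.4) in WT, and fell by 1.29 ± 0.25 (adjusted p = 0.00101), and its difference was -1.93 ± 0.33 (adjusted p = 2.70e-05) under restricted feeding. Nr5a2, which encodes LRH-1, an activator of Cyp7a1, was at 12.1 FPKM (11.05 to 13.2) in ReverbLDKO, against 8.78 FPKM (3.65 to 10.7) in WT, without overlap, and rose by 0.56 ± 0.14 (adjusted p = 0.00558). Cyp27a1, of the acidic pathway, fell by 0.55 ± 0.12 (adjusted p = 0.00226). Of the sterol and bile acid transporters 6 of 13 rose and 0 fell (median 0.34). The transporters had 3 higher and 0 lower under restricted feeding. Slco1a4, an organic anion carrier, was at 23.2 FPKM (8.16 to 31.8) in ReverbLDKO, against 4.80 FPKM (1.19 to 18.2) in WT, and rose by 1.88 ± 0.26 (adjusted p = 5.39e-05). Abcg5, a subunit of the sterol exporter, rose by 0.65 ± 0.14 (adjusted p = 0.00251). Calls were lost after correction for GC content and length for Cyp27a1 (adjusted p = 0.257), with each library scaled to the same sum for Cyp27a1 (adjusted p = 0.474), and in a fit without time terms for Abcg5 (adjusted p = 0.0742).

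Of 26 fatty acid oxidation members 2 rose and 6 fell, and of 4 ketogenesis members 0 passed by limma or voom (1 at an unadjusted p under 0.05). The oxidation list had 6 higher and 2 lower with a common sum and 1 and 12 with WT number 1 libraries only. The members that fell most were Cyp4a12a, a fatty acid hydroxylase that is also male-biased, at 8.70 FPKM (2.43 to 15.01) in ReverbLDKO, against 42.7 FPKM (16.6 to 66.3) in WT, by 2.16 ± 0.26 (adjusted p = 1.62e-05), and the thioesterase Acot1, by 1.79 ± 0.27 (adjusted p = 0.000125). Ppara, which encodes the fasting regulator of this pathway, differed by 0.16 ± 0.19 (adjusted p = 0.533). In lipid uptake 3 of 12 rose and 3 fell. Lpl, lipoprotein lipase, was at 15.3 FPKM (8.85 to 17.9) in ReverbLDKO, against 2.53 FPKM (1.03 to 5.08) in WT, and rose by 2.18 ± 0.15 (adjusted p = 2.81e-08). The lowest ReverbLDKO library had more Lpl than the highest WT library, and the restricted difference was 2.41 ± 0.16 (adjusted p = 1.27e-12). Lipc, hepatic lipase, rose by 0.59 ± 0.10 (adjusted p = 0.000396), while Fabp1, the liver fatty acid binding protein, was at 6049 FPKM (4405 to 7624) in ReverbLDKO, against 10857 FPKM (7486 to 28965) in WT, and fell by 0.97 ± 0.19 (adjusted p = 0.000830). Angptl4, an inhibitor of lipoprotein lipase, fell by 0.88 ± 0.19 (adjusted p = 0.00179).

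In the lipid droplet list 1 of 14 rose and 2 fell, with Fitm1 described above and Cidec at -0.95 ± 0.47 (adjusted p = 0.114). The list had 3 higher and 1 lower after correction for GC content and length, 4 and 1 with a common sum, 1 and 6 with WT number 1 libraries only and 4 and 2 under restricted feeding. Apolipoproteins fell in 8 of 14 and rose in 2 (median -0.48). Apom, which carries sphingosine phosphate in HDL, was at 155 FPKM (136 to 224) in ReverbLDKO, against 283 FPKM (142 to 550.1) in WT, and fell by 0.79 ± 0.19 (adjusted p = 0.00460). Apob, the protein of VLDL, rose by 0.79 ± 0.29 (adjusted p = 0.0415). The list had 1 higher and 2 lower after correction for GC content and length, 3 and 3 with a common sum and 3 and 0 under restricted feeding. Leaving out 1 library ended the call of Apob (12 of 20 libraries, adjusted p up to 0.0840, without the ReverbLDKO library of ZT12). Calls were also lost after correction for GC content and length for Apob (adjusted p = 0.103), without both WT libraries of ZT16 for Apob (adjusted p = 0.103), and in a fit without time terms for Apob (adjusted p = 0.0739). They were also lost with WT number 1 libraries only for Apob (adjusted p = 0.175), and with no filter on low values for Apob (adjusted p = 0.0833).

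Of 17 genes of gluconeogenesis and glycolysis 8 rose and 1 fell (median 0.27), and of 7 genes of glycogen turnover 6 rose and 0 fell (median 0.55). Igfbp1, an insulin-repressed binding protein, was at 117 FPKM (71.1 to 189.8) in ReverbLDKO, against 29.1 FPKM (8.07 to 109.9) in WT, and rose by 1.98 ± 0.31 (adjusted p = 0.000161). G6pc, the glucose phosphatase, was at 293 FPKM (169.5 to 359) in ReverbLDKO, against 149.5 FPKM (94.8 to 218) in WT, and rose by 0.96 ± 0.18 (adjusted p = 0.000591). Slc2a2, the glucose transporter GLUT2, rose by 0.90 ± 0.16 (adjusted p = 0.000541), Pfkfb1 fell by 0.77 ± 0.12 (adjusted p = 0.000171) and Pck1 differed by 0.08 ± 0.18 (adjusted p = 0.754). Ugp2, which makes UDP-glucose for glycogen, was at 286 FPKM (248 to 451) in ReverbLDKO, against 113 FPKM (65.7 to 245) in WT, without overlap, and rose by 1.32 ± 0.19 (adjusted p = 7.60e-05). Gbe1, the branching enzyme, rose by 0.90 ± 0.14 (adjusted p = 0.000151) and Ppp1r3b, a glycogen targeting subunit, by 0.55 ± 0.14 (adjusted p = 0.00688). Under restricted feeding 2 glycogen members were higher and 0 lower, and Ugp2 differed by 0.28 ± 0.18 (adjusted p = 0.208).

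**Figure D4:**
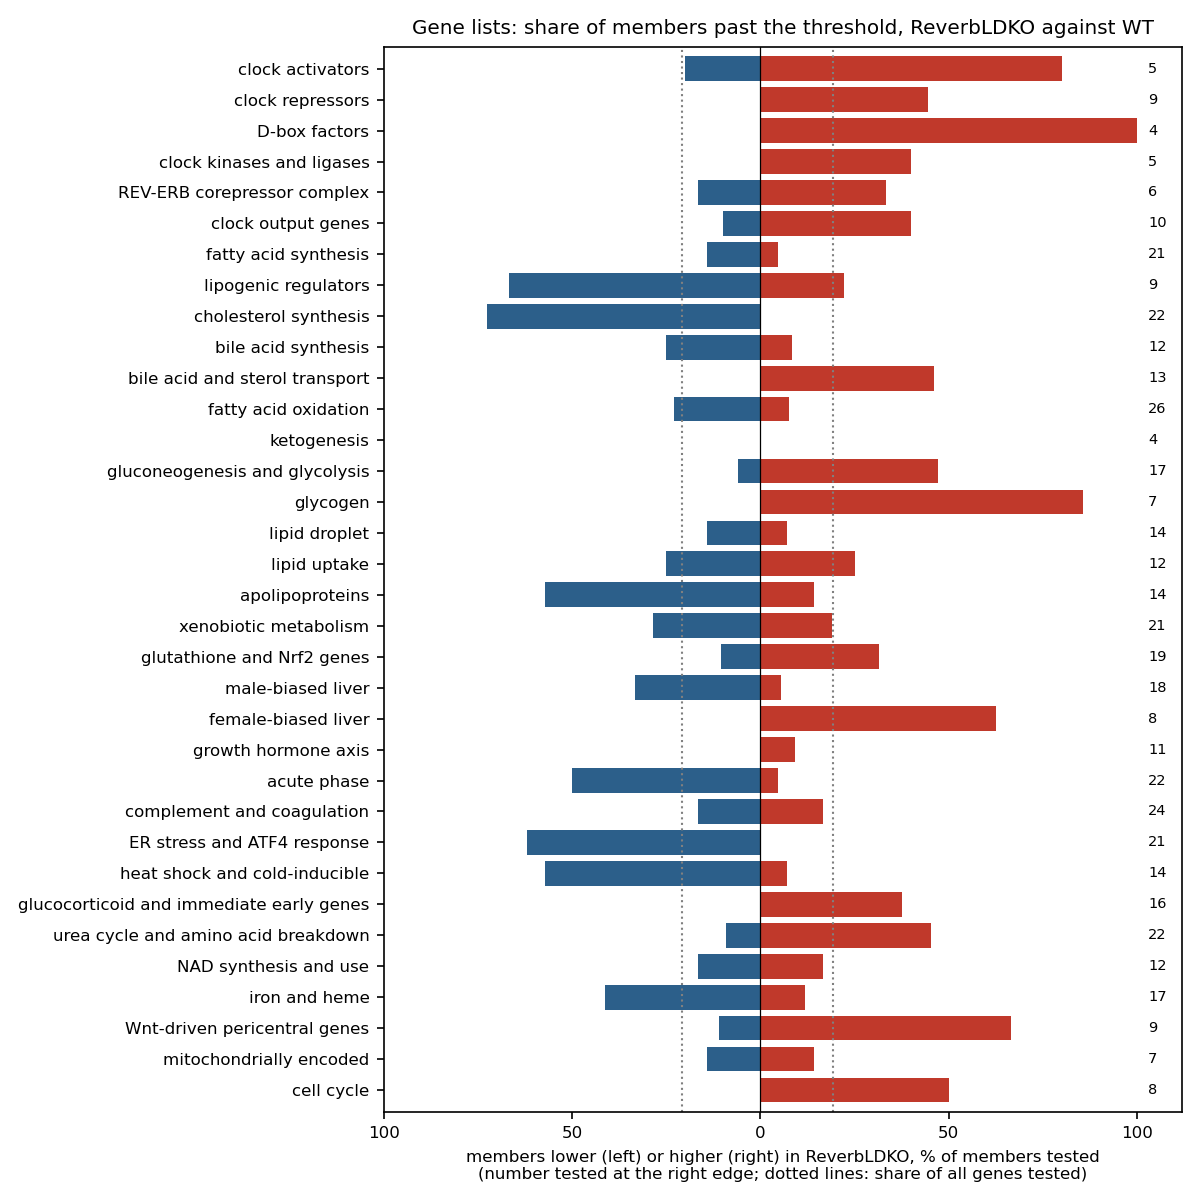
Share of the tested members of each pathway list that were past the threshold, lower in ReverbLDKO to the left and higher to the right, in percent. The number tested stands at the right edge, and dotted lines mark the shares over all genes, 20.8% lower and 19.2% higher. Cholesterol synthesis had 16 of 22 members lower, and glycogen 6 of 7 higher.

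Male-biased liver genes fell in 6 of 18 members tested and rose in 1 (median -0.70), while female-biased genes rose in 5 of 8 and fell in 0 (median 1.09). The female-biased list held 16 members, and only those 8 reached the minimum mean FPKM. That mean was taken over both groups, so a gene near 0 in WT could reach it through high ReverbLDKO values alone. The female-biased count and median therefore cannot be judged against those of all genes. Besides the Mup and Cyp2a genes above, Mup20, which encodes the pheromone darcin, was at 1496 FPKM (845 to 2218) in ReverbLDKO, against 4986 FPKM (677 to 40117) in WT, and fell by 1.58 ± 0.48 (adjusted p = 0.0157). Abcd2, a peroxisomal transporter, rose by 1.41 ± 0.33 (adjusted p = 0.00373). Of the growth hormone axis, which sets this sex bias, 1 of 11 rose, Stat5b, by 0.45 ± 0.11 (adjusted p = 0.00463), and the target genes Igf1 at 0.09 ± 0.12 (adjusted p = 0.551) and Socs2 at -0.13 ± 0.24 (adjusted p = 0.680) did not pass. The labels give no sex of the animals. Under restricted feeding male-biased genes were lower in 8 and higher in 1 of 18, and 0 of the 8 female-biased genes passed by limma (2 at an unadjusted p under 0.05). The male-biased list had 1 higher and 3 lower with WT number 1 libraries only and 1 and 10 with WT number 2 libraries only. The female-biased list had 3 higher and 1 lower with WT number 1 libraries only.

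Xenobiotic genes were higher in 4 of 21 members tested and lower in 6, beside 19.2% and 20.8% of all genes. The list had 5 higher and 4 lower after correction for GC content and length, 8 and 2 with a common sum and 2 and 10 under restricted feeding. Cyp3a11, a main drug hydroxylase, was at 30.99 FPKM (4.25 to 48.7) in ReverbLDKO, against 67.8 FPKM (23.6 to 256) in WT, and fell by 1.76 ± 0.38 (adjusted p = 0.00183). Cyp3a25 was at 192 FPKM (169 to 246) in ReverbLDKO, against 92.9 FPKM (37.8 to 168) in WT, and rose by 1.17 ± 0.19 (adjusted p = 0.000207), and Cyp2c55 rose by 1.33 ± 0.14 (adjusted p = 2.98e-06), both without overlap. In the glutathione list 6 of 19 rose and 2 fell. This list had 11 higher and 4 lower after correction for GC content and length, 11 and 2 with a common sum and 4 and 4 under restricted feeding. The mu class transferases rose, with Gstm2 at 64.5 FPKM (34.99 to 91.1) in ReverbLDKO, against 14.7 FPKM (9.51 to 35.5) in WT and a rise of 1.94 ± 0.21 (adjusted p = 5.34e-06). Gsta4 fell by 1.59 ± 0.24 (adjusted p = 0.000105) and Gstt1 by 1.22 ± 0.15 (adjusted p = 2.20e-05), while Nqo1, a marker of the oxidative stress factor NRF2, differed by 0.61 ± 0.26 (adjusted p = 0.0692).

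Acute phase genes, made by the liver in inflammation, fell in 11 of 22 members and rose in 1 (median -0.53). Hp, haptoglobin, was at 2067 FPKM (1611 to 2574) in ReverbLDKO, against 5164 FPKM (2466 to 10338) in WT, and fell by 1.46 ± 0.19 (adjusted p = 2.95e-05), but under restricted feeding its difference was 0.34 ± 0.31 (adjusted p = 0.378). The list had 1 higher and 7 lower after correction for GC content and length and 6 and 5 under restricted feeding. Complement and coagulation genes were higher in 4 of 24 and lower in 4, beside 19.2% and 20.8% of all genes. They had 9 higher and 0 lower with a common sum and 14 and 1 under restricted feeding. ER stress and ATF4 genes fell in 13 of 21 and rose in 0 (median -0.64). Creld2 was at 16.6 FPKM (13.1 to 30.2) in ReverbLDKO, against 74.5 FPKM (14.5 to 467) in WT, and fell by 1.93 ± 0.41 (adjusted p = 0.00167). Sdf2l1 was at 21.02 FPKM (9.58 to 29.4) in ReverbLDKO, against 87.1 FPKM (10.1 to 511) in WT, and fell by 1.83 ± 0.44 (adjusted p = 0.00406), and Manf fell by 1.53 ± 0.38 (adjusted p = 0.00521). These 3 are ER proteins induced when unfolded protein builds up, and for each the highest WT value was that of the ZT16 number 2 library. Without both WT libraries of ZT16 the list had 2 higher and 12 lower. It had 3 higher and 7 lower with a common sum and 3 and 6 under restricted feeding. Ddit3, which encodes the stress factor CHOP, fell by 0.91 ± 0.24 (adjusted p = 0.00713).

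Heat shock and cold-inducible genes fell in 8 of 14 and rose in 1 (median -0.56). The list had 3 higher and 3 lower with a common sum. Hspb1, a small heat shock protein, was at 1.77 FPKM (0.866 to 2.87) in ReverbLDKO, against 11.8 FPKM (3.97 to 21.2) in WT, without overlap, and fell by 1.94 ± 0.16 (adjusted p = 3.04e-07). Dnajb1, a cochaperone, fell by 0.80 ± 0.19 (adjusted p = 0.00383) and Hspa8, the constitutive HSP70 protein, by 0.76 ± 0.23 (adjusted p = 0.0151). The cold-inducible Cirbp at 0.14 ± 0.09 (adjusted p = 0.191) and Rbm3 at -0.18 ± 0.15 (adjusted p = 0.351) did not pass. Glucocorticoid and immediate early genes rose in 6 of 16 and fell in 0 (median 0.46). This list had 10 higher and 1 lower under restricted feeding. Nr4a1, an immediate early nuclear receptor, was at 5.55 FPKM (2.04 to 12.1) in ReverbLDKO, against 0.575 FPKM (0.375 to 1.12) in WT, without overlap, and rose by 1.87 ± 0.17 (adjusted p = 5.53e-07). Dusp1, a MAP kinase phosphatase, was at 24.6 FPKM (14.6 to 56.7) in ReverbLDKO, against 9.22 FPKM (3.83 to 16.3) in WT, and rose by 1.34 ± 0.21 (adjusted p = 0.000186), and Sgk1 rose by 0.85 ± 0.12 (adjusted p = 7.03e-05). The glucocorticoid target Fkbp5 differed by 0.09 ± 0.15 (adjusted p = 0.657). Calls were lost in a fit without time terms for Hspa8 (adjusted p = 0.0595).

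Urea cycle and amino acid genes rose in 10 of 22 and fell in 2 (median 0.30). The list had 16 higher and 1 lower with a common sum. Gldc, of glycine cleavage, was at 103 FPKM (84.7 to 115) in ReverbLDKO, against 49.6 FPKM (25.5 to 75.1) in WT, without overlap, and rose by 1.08 ± 0.12 (adjusted p = 6.95e-06). Got1, aspartate aminotransferase, rose by 0.87 ± 0.19 (adjusted p = 0.00244) and Oat, ornithine aminotransferase, by 0.71 ± 0.14 (adjusted p = 0.00109). Wnt-driven genes of the cells around the central vein rose in 6 of 9 and fell in 1 (median 0.41). Znrf3, a Wnt feedback inhibitor, was at 1.57 FPKM (1.36 to 1.71) in ReverbLDKO, against 0.692 FPKM (0.400 to 1.33) in WT, without overlap, and rose by 0.56 ± 0.07 (adjusted p = 2.53e-05). Axin2, another such target, rose by 0.46 ± 0.10 (adjusted p = 0.00252).

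Of 12 genes of NAD synthesis and use 2 rose and 2 fell. Naprt, which makes NAD from nicotinic acid, was at 42.3 FPKM (35.2 to 44.1) in ReverbLDKO, against 74.7 FPKM (46.1 to 97.4) in WT, without overlap, and fell by 0.77 ± 0.09 (adjusted p = 7.67e-06), but differed by 0.77 ± 0.22 (adjusted p = 0.00615) under restricted feeding. Sirt1, an NAD-dependent deacetylase, rose by 0.44 ± 0.08 (adjusted p = 0.000403). Iron and heme genes fell in 7 of 17 and rose in 2. The list had 6 higher and 4 lower with a common sum and 3 and 3 under restricted feeding. Alas1, the rate-limiting enzyme of heme synthesis, was at 87.3 FPKM (27.9 to 133) in ReverbLDKO, against 114 FPKM (36.5 to 393) in WT, and fell by 0.91 ± 0.24 (adjusted p = 0.00746). Tfrc, the transferrin receptor, rose by 0.76 ± 0.19 (adjusted p = 0.00489). Cell cycle genes rose in 4 of 8 tested and fell in 0, with Cdkn1a, the p21 inhibitor, at 39.96 FPKM (26.05 to 50.8) in ReverbLDKO, against 21.3 FPKM (3.25 to 47.2) in WT and a rise of 1.36 ± 0.28 (adjusted p = 0.00130). Ccnd1, cyclin D1, rose by 0.97 ± 0.19 (adjusted p = 0.00100), and the mitotic genes Mki67, Top2a and Cdk1 were below the filter. Of 7 mitochondrially encoded genes tested, mt-Nd6 was higher and mt-Cytb fell by 0.44 ± 0.12 (adjusted p = 0.00816). These had 3 higher and 0 lower with a common sum, 1 and 4 with WT number 2 libraries only and 0 and 3 under restricted feeding. Calls were lost after correction for GC content and length for mt-Cytb (adjusted p = 0.215), with each library scaled to the same sum for Alas1 (adjusted p = 0.130) and mt-Cytb (adjusted p = 0.597), and in a fit without time terms for Alas1 (adjusted p = 0.0696). They were also lost with no filter on low values for mt-Cytb (adjusted p = 0.0904).

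Markers of the cell types that liver can hold were read beside these lists, since in bulk RNA fewer cells of a type and less RNA per cell cannot be told apart. Hepatocyte markers summed to 40352 to 45371 FPKM in ReverbLDKO and 43149 to 63068 in WT (exact permutation test, adjusted p = 0.00734), and 2 of 9 were higher and 1 lower. Stellate and fibroblast markers were higher in 6 of 11 and lower in 2, with Col3a1, a fibrillar collagen, higher by 0.75 ± 0.17 (adjusted p = 0.00289), and their sums did not pass (adjusted p = 0.739, exact permutation test). Endothelial markers were higher in 2 of 11 and lower in 2, near the shares of all genes. Lyve1 was higher by 0.88 ± 0.19 (adjusted p = 0.00161) and Clec4g lower by 0.82 ± 0.20 (adjusted p = 0.00467). The endothelial sum was lower in ReverbLDKO, at 75.1 to 90.95 FPKM, against 75.2 to 180 in WT (adjusted p = 0.0179, exact permutation test). Its highest WT value was that of the ZT16 number 2 library. Of the Kupffer and immune markers 2 of 13 were higher, among them Adgre1 by 0.70 ± 0.18 (adjusted p = 0.00587), and 1 was lower. The 5 adipocyte markers summed to 0.323 to 3.05 FPKM in ReverbLDKO and 0.487 to 45.6 in WT (adjusted p = 0.00427, exact permutation test), and 1 was tested as a gene, Cfd, which encodes complement factor D. It was at 0.385 FPKM (0.102 to 1.93) in ReverbLDKO, against 14.9 FPKM (0.346 to 45.4) in WT, and was lower by 2.78 ± 0.42 (adjusted p = 0.000116). Adipoq, the defining fat cell gene, had a highest value of 0.682 FPKM in ReverbLDKO and 0.158 in WT. Of 11 pancreas markers 0 passed by limma or voom, and 0 at an unadjusted p under 0.05, and of 6 erythroid markers 2 were higher and 1 lower. Hepatocyte markers had 1 higher and 1 lower without both WT libraries of ZT16, 5 and 0 with a common sum, 1 and 1 with WT number 1 libraries only and 4 and 0 under restricted feeding. Endothelial markers had 5 higher and 2 lower with WT number 2 libraries only. Kupffer and immune markers had 4 higher and 0 lower after correction for GC content and length, 5 and 0 with a common sum, 1 and 1 with WT number 1 libraries only, 4 and 1 with WT number 2 libraries only and 2 and 3 under restricted feeding. Erythroid markers had 0 higher and 0 lower with WT number 1 libraries only and 4 and 0 under restricted feeding. Calls were lost with WT number 1 libraries only for Adgre1 (adjusted p = 0.0751).

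The daily patterns differed less clearly than the levels. Of 9951 genes 3 (0.0301%) had a different pattern in ReverbLDKO and WT, and 592 at an unadjusted p under 0.05. In WT a 24-h pattern passed in 1344 genes (13.5%), and in ReverbLDKO in 1 (0.0100%), with 228 genes at an unadjusted p under 0.05. Chance alone would put a share of about 0.05 of all genes under the unadjusted limit, which is near the 592 and above the 228. A pattern that passes in one genotype alone is not shown to differ, and the WT group had 12 libraries, against 8 for ReverbLDKO. Each gene had 1 residual spread for both groups, so the spread of WT libraries entered the ReverbLDKO test too. That test passed in 543 genes with library weights and in 0 without both WT libraries of ZT16. The peak-to-trough difference was smaller in ReverbLDKO than in WT for 84.8% of all genes, with medians of 0.20 in ReverbLDKO and 0.53 in WT. Without both WT libraries of ZT16 the share was 82.7%, but 219 genes then passed for a different pattern and 4240 for a pattern in WT. The ZT16 number 2 library alone took the WT count to 3992 when left out.

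Genes with the smallest p for a different pattern and a mean of at least 5 FPKM included Spon2, Cry1, Clpx, Mad2l2, Crip2, Chka and Smagp. Spon2, a secreted matrix protein, was at 6.22 FPKM (3.10 to 8.52) in ReverbLDKO, against 3.91 FPKM (0.374 to 21.3) in WT, with a peak-to-trough difference of 0.65 in ReverbLDKO and 3.18 in WT (adjusted p = 0.0440). For Cry1 the difference was 0.52 in ReverbLDKO and 2.62 in WT (adjusted p = 0.0551) and for Clpx 0.36 in ReverbLDKO and 2.71 in WT (adjusted p = 0.0551). Both lie just outside the threshold. Mad2l2, a polymerase zeta subunit, had 0.21 in ReverbLDKO and 1.68 in WT (adjusted p = 0.0754), and the other 3 had adjusted p of 0.165 to 0.170. In each of these 7 genes the pattern was flatter in ReverbLDKO. The other genes past the threshold, Dtx4 (adjusted p = 0.0119) and the immunoglobulin segment Igkj4 (adjusted p = 0.0121), and Slc13a2, the 1 gene with a pattern in ReverbLDKO (adjusted p = 0.0386), were at lower levels and are named after their values were seen.

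Of genes with at least 5 FPKM, the smallest p for a pattern in ReverbLDKO belonged to Pcsk4, Aspg, Fkbp5, Cyp2u1, Lrrc28 and Dhx58, none of which passed. Pcsk4, a proprotein convertase, had a peak-to-trough difference of 1.96 in ReverbLDKO and 1.91 in WT, and Fkbp5, a glucocorticoid target, of 1.69 in ReverbLDKO and 2.14 in WT. Tests of a different pattern gave p = 0.723 for Pcsk4 and p = 0.00204 for Fkbp5 before adjustment. Among the clock lists the pattern was flatter in ReverbLDKO for all 5 activators, all 9 repressors, all 4 D-box factors and all 10 output genes tested, beside the 84.8% of all genes.

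The libraries of restricted feeding, which share none with the ad libitum ones, had 2625 genes (26.4%) higher and 2031 (20.4%) lower in ReverbLDKO. Of the ad libitum genes 626 were higher under both feedings (32.8% of the ad libitum and 23.8% of the restricted list) and 516 were lower under both (24.9% and 25.4%). A further 598 genes passed in opposite directions. The genotype difference itself depended on feeding in 2980 genes (29.9%), and after correction for GC content and length in 1609. Of the clock genes, Clock and Nr1d2 passed the test of a dependence on feeding (adjusted p = 0.0149 and 0.0313). Both rose ad libitum, and their restricted differences did not pass, at -0.0031 ± 0.11 for Clock (adjusted p = 0.984) and 0.17 ± 0.25 for Nr1d2 (adjusted p = 0.584). For Arntl, Npas2, Cry1 and Nr1d1 a dependence on feeding did not pass (adjusted p = 0.965, 0.426, 0.954 and 0.840). Their restricted differences were 1.28 ± 0.21 for Arntl, 1.77 ± 0.13 for Npas2, 0.96 ± 0.14 for Cry1 and 2.67 ± 0.24 for Nr1d1.

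The smallest p for a dependence on feeding belonged to Scand1, Ccdc85b, Tpgs1, Cebpd, Csnk1g2 and Sypl. Scand1 was lower by 0.82 ± 0.16 ad libitum and differed by 2.98 ± 0.14 under restricted feeding. Cebpd, a stress-induced transcription factor, was lower by 0.99 ± 0.14 and differed by 1.10 ± 0.16 under restricted feeding. Sypl, a vesicle membrane protein, was at 11.5 FPKM (11.1 to 14.03) in ReverbLDKO, against 6.60 FPKM (5.05 to 8.60) in WT, and was higher by 0.77 ± 0.06, against -0.23 ± 0.08 under restricted feeding. The opposite-strand sum also ran in opposite directions under the feedings, as given above, and the median GC slope was -0.01 in ReverbLDKO and -0.52 in WT under restricted feeding. Their part in these genes was not tested beyond the corrected count above. Of the 12 largest rises 8 were past the threshold in the same direction under restricted feeding, beside 32.8% of all genes that rose ad libitum, and so were 8 of the 12 largest falls, beside 24.9% of all that fell.

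**Figure D5:**
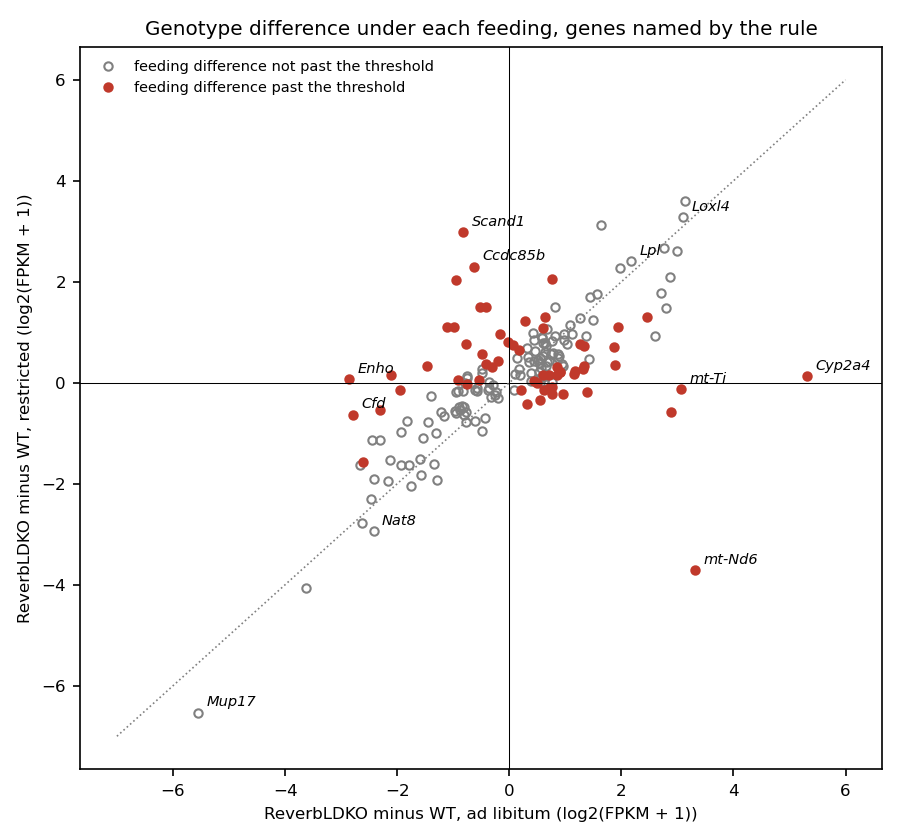
Difference of level (ReverbLDKO minus WT, log2(FPKM + 1)) under ad libitum (x axis) and restricted (y axis) feeding for the genes eligible to be named. Filled points passed the test of a dependence on feeding, and the dotted line marks equal differences. Cyp2a4, Enho and mt-Ti lie near 0 on the restricted axis, and mt-Nd6 has opposite signs on the axes.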

How the data were processed

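PolyA RNA of mouse liver was made into stranded libraries and sequenced, per the labels' protocols. The authors deposited 1 table of FPKM per gene (fragments per kilobase, divided by a scaling number per library), with 1 column per library. The submitters' processing notes name STAR, featureCounts, DESeq2 and GRCm38, while versions and strand handling are not given in the sources. The table held 45808 rows, of which 27 with date-like symbols were left out, and 41828 of the other 45781 rows matched 1 gene of GENCODE vM21, from which length, GC content and position came.

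The deposited FPKM were taken as log2(FPKM + 1), and limma 3.58.1 (R 4.3.3, Benjamini-Hochberg adjustment, mean-variance trend) fitted a level, a 24-h cosine and a sine per group to 20 libraries, over the 9951 genes that averaged 1 FPKM or more. Restricted feeding and its difference from ad libitum came from the same fit over 39 libraries. Multiplied by gene length, 84.0 to 88.0% of the low values of a library (up to 20 reads) fell within 0.1 of whole reads. Limma's voom on those reads called 2504 of 6064 genes, and the recovered reads gave the depth of 10.8 to 36.1 M reads per library. Over the 67 libraries the scaling number of the FPKM was 0.898 to 1.11 times a size factor, relative to the median library. That size factor was the median ratio of a library's reads to their geometric mean. The scaling number was not the depth, at 5.39 M in the WT library of ZT16 number 2, which had 10.8 M reads. Library properties were compared by exact permutation tests. Correction for GC content and length, common sums, other filters and pseudocounts, library weights, 12-h terms, no time terms, a replicate block, other sets of libraries and leaving out each library were the alternatives. The fit was tested on simulated data.

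The comparison, the gene lists and the tests were chosen with earlier results of these data known. The rule for named genes took the clock lists, the 12 largest rises and falls past the threshold with a mean of at least 5 FPKM (predicted genes and genes opposite a stronger gene aside, of which up to 4 were named apart), up to 4 members of each list with the largest differences, the 8 smallest p for a different pattern, the 6 smallest for a pattern in ReverbLDKO and the 6 smallest for a dependence on feeding. List members that did not pass were named with their values, and some genes that the rule or a list includes are not reported here. The remaining 28 libraries of the study, of other genotypes, entered only the fit of all 67. Promoter windows came from RefSeq (GRCm38.p6), and genes of chromosome 18 are not in their counts.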

Additional observations from a re-analysis of the deposited data

Results flagged for a closer look

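In 6 of the 141 named genes, 1 of the 8 ReverbLDKO libraries lay farther from the rest than Dixon's 95% limit allows. Chance gives this in about 5% of groups whose values share one distribution. The 8 libraries are of 8 different hours, so a daily pattern can also set a value apart and the 5% need not hold here. Per1 had its lowest value, 1.90 FPKM, at ZT24, against 4.70 FPKM in the nearest library. Mir6236 had its highest value, 7485 FPKM, at ZT9, against 5434 FPKM in the nearest library. Acot1 had its highest value, 4.79 FPKM, at ZT18, against 2.40 FPKM in the nearest library. Apob had its lowest value, 186 FPKM, at ZT9, against 277 FPKM in the nearest library. Dusp1 had its highest value, 56.7 FPKM, at ZT12, against 31.7 FPKM in the nearest library. Sypl had its highest value, 14.03 FPKM, at ZT24, against 12.2 FPKM in the nearest library. The ReverbLDKO libraries of ZT9 and ZT24 held 2 each of these 6 values. Summed pancreas markers were 915 FPKM in the ZT9 library and 46.1 FPKM in that of ZT24, and their part in these values was not tested.

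For 54 of the 141 named genes the difference between ReverbLDKO and WT itself depended on feeding by limma's test (adjusted p under 0.05). The adjustment was over all genes, of which 29.9% passed. Some of the named genes were chosen for the smallest p of this same test. Others were chosen for large ad libitum differences, which enter the test. The share among named genes therefore cannot be judged against that of all genes. The values are the ad libitum minus the restricted genotype difference, on log2(FPKM + 1). Among the genes with the smallest p, the difference was more positive ad libitum for Sypl (by 0.996). It was lower ad libitum for Scand1 (-3.799), Ccdc85b (-2.92), Tpgs1 (-2.98), Cebpd (-2.098) and Csnk1g2 (-1.91). Among clock, output and corepressor genes, the difference was more positive ad libitum for Clock (by 0.495), Nr1d2 (by 0.99), Fbxw11 (by 0.36), Clpx (by 0.49) and Tbl1xr1 (by 0.44). It was lower ad libitum for Leo1 (-0.48), Por (-1.13) and Gps2 (-0.79). Among genes with large changes or an opposite gene, the difference was more positive ad libitum for Cyp2a4 (by 5.17), mt-Ti (by 3.204), Cyp2b9 (by 3.46), Gstm3 (by 1.17) and mt-Nd6 (by 7.02). It was lower ad libitum for Enho (-2.93), Cfd (-2.16), Fitm1 (-1.04) and Gadd45gip1 (-2.204). Among genes of lipid and glucose metabolism, the difference was more positive ad libitum for Slco1a4 (by 1.53), G6pc (by 1.18), Slc2a2 (by 0.68), Ugp2 (by 1.04) and Gbe1 (by 0.69). It was lower ad libitum for Slc25a1 (-0.72), Agpat2 (-1.06), Srebf1 (-1.29), Pmvk (-1.76), Mvd (-2.27) and Cyp27a1 (-0.59). Among drug, acute phase and stress genes, the difference was more positive ad libitum for Cyp2c55 (by 0.59), Cyp3a25 (by 0.94), Gstm2 (by 0.84), Nr4a1 (by 1.16), Dusp1 (by 1.001) and Sgk1 (by 0.53). It was lower ad libitum for Hp (-1.801), Ddit3 (-0.96) and Hspb1 (-1.796). Among the others, the difference was more positive ad libitum for Oat (by 0.57), Sirt1 (by 0.396), Tfrc (by 0.83) and Adgre1 (by 0.798). It was lower ad libitum for Naprt (-1.54), Mad2l2 (-0.63), Crip2 (-2.04), Smagp (-0.85), Pcsk4 (-0.66), Aspg (-0.95) and Dhx58 (-0.69). The GC slope and the opposite-strand sum of the libraries moved with feeding and genotype too, and their part in single genes was not tested.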

How the results depend on the processing

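Most counts below moved by over 1.5 times under the setting named, and ranges without 1 library stand beside them. The level difference passed in 2352 genes that averaged 5 FPKM or more (fewer genes tested) and in 2504 of 6064 genes by voom on recovered reads, against 3977, and in 3229 to 5012 without 1 library. A different daily pattern passed in 3 genes, and in 1206 with library weights, 219 without both WT libraries of ZT16 (chosen after seeing the data), 16 in a fit of all 67 libraries, 15 with WT number 1 libraries only and 0 with WT number 2 libraries only. It passed in 0 with 12-h terms, 6 after correction for GC content and length, 6 with no filter, 0 with at least 5 FPKM, 5 without opposite-strand genes, 7 with a pseudocount of 0.1 and 1 to 9 without 1 library (9 without WT ZT16 number 2, 6 without WT ZT20 number 2 and 1 without ReverbLDKO ZT6, ZT12, ZT18 or ZT24). A pattern in ReverbLDKO passed in 543 genes with library weights, 6 with no filter, 3 in the fit of all libraries and 0 to 1 without 1 library, against 1, and in 0 with 12-h terms, both ZT16 libraries out, the GC correction, WT number 2 only, at least 5 FPKM, opposite-strand genes out, a pseudocount of 0.1, a common sum or voom. A pattern in WT, found in 1344 genes, passed in 4526 with library weights, 4240 without both ZT16 libraries, 3009 in the fit of all libraries, 2321 with WT number 1 and 59 with WT number 2 only, 406 with 12-h terms, 805 with no filter, 759 with at least 5 FPKM, 737 by voom and 582 to 3992 without 1 library, among them 797 without ZT16 number 1, 3992 without ZT16 number 2, 855 without ZT20 number 2, 701 without ZT24 number 2 and 582 without ZT4 number 1. The restricted difference passed in 2632 genes with at least 5 FPKM and 2997 by voom, against 4656, and the dependence on feeding in 1609 after the GC correction, 1760 with WT number 1 only, 5746 with library weights and 1804 with at least 5 FPKM, against 2980. Except where GC content, a filter or fewer libraries is the setting itself, the cause was not tested.

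With the replicate block the level difference passed in 2166 genes, the pattern in ReverbLDKO in 0, the pattern in WT in 2025 and the restricted difference in 2338. ReverbLDKO libraries all carry number 1, so the numbers do not pair libraries across the genotypes and the block compares ReverbLDKO with WT number 1. Of 124 named genes past the threshold, 85 stayed past it in the same direction in each of the 36 alternatives that test them, and 26 lost the call under the block. Of the lists, D-box factors had 2 higher and 0 lower under it, regulators of lipid synthesis 0 and 3, female-biased genes 1 and 1, male-biased genes 1 and 2, ER stress genes 0 and 4 and complement genes 0 and 1. The level of Btrc was -0.26 after the GC correction, and that of Smagp 0.39 after it and 0.32 with a common sum, where both differences had the other sign as deposited. Recovered depth was lower in WT, so genes near the minimum of 1 FPKM rest on fewer reads there.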
